A study of Rattus norvegicus with 102 samples.

Results

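The transcripts described here encode the calmodulin-dependent protein kinases and the phosphatase calcineurin of rat hippocampus. The 10 genes were Camk2a, Camk2b, Camk2d and Camk2g (the subunits of CaMKII), Camkk1, Camkk2 and Camk4 (the CaMKK to CaMKIV cascade), and Ppp3ca, Ppp3cb and Ppp3r1 (subunits of calcineurin). They were chosen by symbol for their place in this signalling pathway, with earlier results of these data known. All 10 were found among the 26284 genes of the Illumina table and the 26341 genes of the Ion Proton table, and all 10 passed the filter on low values. Camk2a was written in capitals in the tables and was matched ignoring case.

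RNA was taken from CA1, CA3 and the dentate gyrus (DG) dissected from 1 hippocampus of each of 34 male rats of the strain labelled Fisher 344. Per the paper, the rats were characterised at the University of Arizona or the University of Florida. The suppliers differed between these sites, and the data were pooled as 1 cohort. The sample titles give a rat number but no site, and what the number series stands for is not stated. Young rats (n = 10, title suffix Y) were aged 5 to 6 months. Aged rats, aged 17 to 22 months, were labelled aged unimpaired (n = 12, OG) or aged impaired (n = 12, OB) from their performance in a water maze, a test in which the rat learns the place of a hidden platform. No allele or drug was used, all groups were behaviourally tested, and CA2 and the subiculum were not isolated as samples of their own. Poly-A RNA of these samples was read on both Illumina and Ion Proton sequencers. A further table carries the name WT, and its library type is not given in the sources used here.

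When calcium enters a neuron through NMDA receptors or calcium channels it binds calmodulin, and calcium-loaded calmodulin switches on both the kinases and calcineurin. CaMKII is a multi-subunit kinase concentrated at excitatory synapses and needed for long-term potentiation, while calcineurin is the calcium-dependent phosphatase associated with long-term depression. CaMKK phosphorylates CaMKIV, a nuclear kinase that acts on the transcription factor CREB. The balance between kinase and phosphatase activity is a standing question in the ageing hippocampus, but RNA levels do not measure the activity of either.

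Values are normalised reads (reads of a gene divided by the size factor of its library), from the Illumina table unless another is named. Errors are SD, and log2 differences are of log2(value + 1). In bulk tissue, fewer cells of a type and less RNA per cell cannot be told apart. Illumina libraries held between 3247000 and 42750000 reads on genes, rounded to 4 digits, and Ion Proton libraries between 4470000 and 21430000. In 7 rats the Illumina libraries were deeper than in the others, from 28020000 reads up. The lowest read count behind any Illumina value of Camk4, the least read member, was 83.

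The subfield labels were checked against marker genes. Of 12 listed markers, 8 were detected well enough to be used (Wfs1, Mpped1, Grik4, Nnat, Cpne4, Prox1, Dsp and C1ql2). Pou3f1 had no row, and Fibcd1, Iyd and Tdo2 were at or near 0. Wfs1 and Mpped1 were highest in CA1 and Prox1, Dsp and C1ql2 in DG, but Grik4 and Cpne4, listed for CA3, were higher in DG than in CA1 and not lower in DG than in CA3. In 8 libraries the marker profile lay nearest to the median of another subfield in both poly-A tables. These libraries, from 6 rats, were labelled CA1 (1 library), CA3 (4 libraries) and DG (3 libraries). Every contrast of the 10 members below, and their ratios between subfields, were also computed without them in both poly-A tables. Contrasts of the pathway genes and of the cell markers are given with all libraries only. A library labelled DG from an aged unimpaired rat or one from a young rat, both among the 8, was the lowest DG library for 8 of the 10 members, and the former was also the highest for Camk2d, at 2310 normalised reads. The dentate markers were also higher in libraries labelled CA1 than in those labelled CA3, with all 3 tested markers called and a mean summed level of 1452 against 678. Their part in the differences between CA1 and CA3 was not tested.

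More libraries stood apart in other ways. In 5 others, 4 of CA1 and 1 of CA3, the summed choroid plexus markers (Ttr, Kl, Folr1 and the 2 rows of Otx2) were over 10000, beside a CA1 median of 240.8 and at most 5639 in the remaining libraries. They reached 147500 in the CA1 library of an aged impaired rat and 122500 in that of an aged unimpaired rat. The former was the highest CA1 library for Camk2d and the lowest for Camk2b, Camkk1, Ppp3ca, Ppp3cb and Ppp3r1. On the Ion Proton, 7 libraries, all of aged rats (4 of CA1 and 3 of CA3), had 15057 to 16845 genes detected, against 17148 or more in the remaining ones. The members' contrasts that used such libraries, and the members' ratios, were also computed without either set in both poly-A tables. The limits were chosen after the data were seen.

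The stretch of 250 bases before the start site is shown for members that were lower in both CA1 and CA3 than in DG, and for Camk2d, which was higher in both. Promoters of 9 of the 10 members were found in the RefSeq table (build GRCr8); Camkk2 was not matched. The start sites are those of RefSeq and were not measured here. Capitals mark TGACG or its reverse complement CGTCA, the core of the element bound by CREB.
Camk2b, chr14:85147945-85148194, minus strand: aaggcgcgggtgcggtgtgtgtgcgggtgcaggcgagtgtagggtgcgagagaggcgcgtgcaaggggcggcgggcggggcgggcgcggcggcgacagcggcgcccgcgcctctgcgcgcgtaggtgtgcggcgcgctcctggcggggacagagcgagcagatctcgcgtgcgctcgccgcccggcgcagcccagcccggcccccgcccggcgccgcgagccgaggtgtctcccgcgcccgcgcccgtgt
Camkk1, chr10:58135685-58135934, plus strand: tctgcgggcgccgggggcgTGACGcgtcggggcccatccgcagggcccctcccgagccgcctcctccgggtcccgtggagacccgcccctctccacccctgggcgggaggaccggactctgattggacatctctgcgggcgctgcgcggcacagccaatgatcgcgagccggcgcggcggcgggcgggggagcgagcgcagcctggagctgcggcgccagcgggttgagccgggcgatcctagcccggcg
Ppp3cb, chr15:3809012-3809261, plus strand: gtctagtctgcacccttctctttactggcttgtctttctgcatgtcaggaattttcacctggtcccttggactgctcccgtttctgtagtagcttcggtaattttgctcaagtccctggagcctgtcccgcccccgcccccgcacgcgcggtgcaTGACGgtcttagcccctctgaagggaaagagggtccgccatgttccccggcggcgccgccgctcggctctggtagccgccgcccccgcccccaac
Ppp3r1, chr14:95769596-95769845, plus strand: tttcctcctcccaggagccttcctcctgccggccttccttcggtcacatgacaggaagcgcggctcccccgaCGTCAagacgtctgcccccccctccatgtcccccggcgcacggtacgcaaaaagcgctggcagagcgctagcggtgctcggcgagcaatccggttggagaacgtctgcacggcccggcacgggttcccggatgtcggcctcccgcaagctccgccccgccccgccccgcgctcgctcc
Camk2d, chr2:217698301-217698550, plus strand: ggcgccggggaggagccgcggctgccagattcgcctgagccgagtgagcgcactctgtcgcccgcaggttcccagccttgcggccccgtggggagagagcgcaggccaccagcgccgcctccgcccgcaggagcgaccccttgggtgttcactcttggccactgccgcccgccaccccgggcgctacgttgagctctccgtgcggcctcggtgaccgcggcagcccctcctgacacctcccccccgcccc
The motif TGACG was found on either strand in the windows of Camkk1, Ppp3cb and Ppp3r1, once in each, and at 2 places in that of Camk2a, against 18.2% of the 33469 RefSeq promoters of the same length. The full element TGACGTCA was in none of the 9 windows and in 1.59% of all promoters. GGGCGG, the GC box, was in 7 of the 9 windows (all but those of Camk2a and Camk4) and in 30.5% of all promoters, and the TATA box TATAAA was in none of the 9 and in 12.9% of all. These matches describe letters only.

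**Figure D1:**
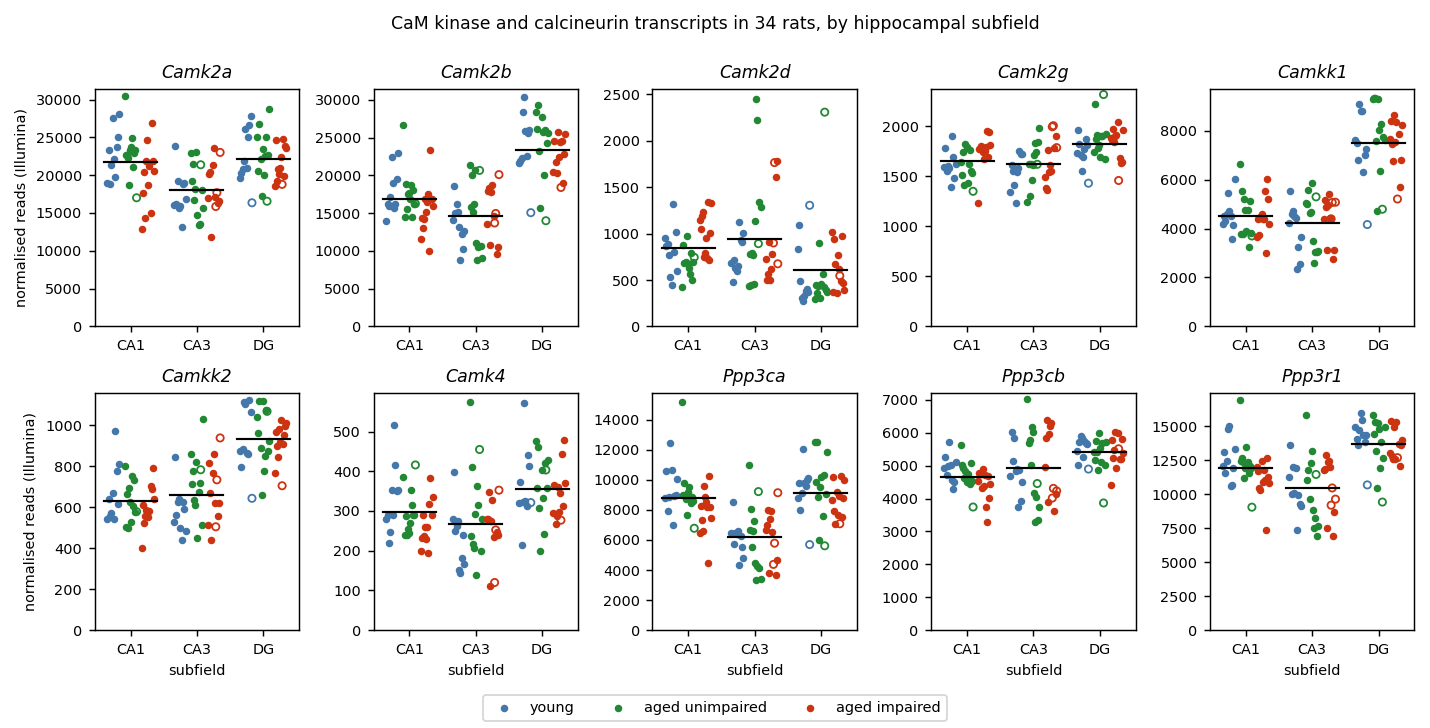
Normalised reads (Illumina table, linear axis from 0) of each of the 10 members in CA1, CA3 and DG of 34 rats. Each point is a rat, coloured by group, black lines are means over the subfield, and open circles are the 8 libraries whose markers lay nearest another subfield. Camkk1 stood highest in DG, with a mean of 7474 in DG against 4523 in CA1.

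The first question was how the transcripts differed between subfields. The call required a Benjamini-Hochberg adjusted p under 0.05 by limma in the Illumina and in the Ion Proton table, with 1 sign. Of the 10 members, 5 were lower in CA1 than in DG, beside 13.5% of all genes, and 7 were lower in CA3 than in DG, beside 14.3%. Camk2d was higher in both, beside 13.4% and 14.1%. Including Camk2d, 6 of 10 were called for CA1 against DG, beside 26.9% of all genes tested, and 8 of 10 for CA3 against DG, beside 28.5%. Between CA1 and CA3, 2 of 10 members were called, a share near the 14.4% of all genes. Both were higher in CA1 (7.26% of all genes) and 0 were lower (7.09%). The median log2 difference over the members was -0.21 between CA1 and DG and -0.44 between CA3 and DG, beside 0.003 and 0.01 over all genes tested. In the Illumina table the ranges of every pair of subfields overlapped for all 10 members, but so did those of every gene tested (0% did not overlap). Without the 8 libraries the members' ranges still overlapped, beside 0.0141%, 0.169% and 0.409% of genes without overlap between CA1 and CA3, CA1 and DG, and CA3 and DG. Markers of other cells moved with the differences from DG, and their part in these counts was not tested. Of the microglial markers 2 of 4 were called higher in CA1 (Csf1r 0.28 and P2ry12 0.35) and 3 of 4 in CA3 (Csf1r 0.25, P2ry12 0.27 and Cx3cr1 0.31), and of the interneuron markers 1 of 4 in each (Pvalb, 0.72 and 0.59). Endothelial markers were called higher in CA1 (2 of 3, Cldn5 0.47 and Flt1 0.42) but not in CA3 (0 of 3), and astrocyte markers in CA3 (1 of 4, Aldh1l1 0.20) but not in CA1 (0 of 4). Choroid plexus markers were called higher in CA1 (2 of 3, Folr1 1.29 and Kl 1.18) and in CA3 (1 of 3, Folr1 1.94). Of the subiculum and cortex markers, Fn1 was called higher in CA1 (0.46) and CA3 (0.39) and Tshz2 in CA1 (0.65), with Nptx2 lower in CA3 (-0.32).

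Camkk1 and Camkk2, the kinases that activate CaMKI and CaMKIV, were lower in CA1 and CA3 than in DG. Camkk1 ranged from 2985 to 6633 in CA1 (median 4445), from 2360 to 5865 in CA3 (median 4482) and from 4163 to 9347 in DG (median 7618). DG was the highest, with 0 of 34 CA1 libraries and 0 of 34 CA3 libraries above the DG median. The log2 difference was -0.72 ± 0.08 (SE, adjusted p = 5.21e-14, limma) when CA1 was set against DG and -0.84 ± 0.08 (adjusted p = 4.37e-17) when CA3 was, or 1.65-fold and 1.79-fold more in DG. The Ion Proton gave -0.71 and -0.78. Within rats, Camkk1 was higher in DG than in CA3 in 33 of 34. Without the 8 libraries the differences from DG were -0.77 and -0.94. CA1 against CA3 was not called, at 0.12 with the rat as a block (adjusted p = 0.196, limma). Without the 8 libraries it was 0.16 (unadjusted p = 0.0304, adjusted p = 0.0684, limma).

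Camkk2 ranged from 402.7 to 971.5 in CA1 (median 609.4), from 438.2 to 1031 in CA3 (median 631.7) and from 643.6 to 1123 in DG (median 921.8). It too was highest in DG, with 1 CA1 library and 2 CA3 libraries above the DG median. The log2 difference was -0.57 ± 0.06 in CA1 relative to DG (adjusted p = 1.49e-12, limma) and -0.52 ± 0.06 in CA3 relative to DG (adjusted p = 4.08e-11). Between CA1 and CA3 it was -0.05 (95% interval -0.18 to 0.08, adjusted p = 0.576), and -0.21 in the Ion Proton table (adjusted p = 0.0527).

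Camk4 encodes CaMKIV, the nuclear kinase downstream of these. It ranged from 195.1 to 517.0 in CA1 (median 289.1), from 110.5 to 574.4 in CA3 (median 256.9) and from 198.2 to 571.4 in DG (median 351.3). CA3 was lower than DG, with a log2 difference of -0.47 ± 0.10 (adjusted p = 2.45e-05, limma), and by -0.35 in the Ion Proton table. With DESeq2 this difference was -0.41 but no longer passed in both tables. CA1 lay between, and its difference from DG (-0.26, adjusted p = 0.0201) was not called because the Ion Proton p did not pass (adjusted p = 0.168).

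Among the CaMKII subunits, Camk2a and Camk2b, the forebrain alpha and beta subunits, were not distributed alike. Camk2b ranged from 9945 to 26650 in CA1 (median 16390), from 8804 to 21340 in CA3 (median 14800) and from 13990 to 30340 in DG (median 24340). DG was highest, at -0.47 ± 0.08 in CA1 relative to DG (adjusted p = 1.3e-07, limma) and -0.71 ± 0.08 in CA3 (adjusted p = 1.33e-13). The CA1 to DG difference was -0.48 without the deeply sequenced rats but was then not called in both tables. CA1 was above CA3 by 0.24 in the Illumina table (adjusted p = 0.00968) but not past the threshold in the Ion Proton table (0.28, adjusted p = 0.0889).

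Camk2a ranged from 12910 to 30450 in CA1 (median 22010), from 11850 to 23890 in CA3 (median 17420) and from 16350 to 28770 in DG (median 22050). CA3 was the low subfield, and the ranges of CA1 and DG covered much the same span. CA1 exceeded CA3 by 0.27 ± 0.06 on the log2 scale (adjusted p = 0.000182, limma), in 28 of 34 rats, and the Ion Proton gave 0.32. CA3 against DG was -0.30 (adjusted p = 7.87e-06) but -0.20 with adjusted p = 0.0664 in the Ion Proton table, so it was not called. With the rat as a block it was called, with an Ion Proton adjusted p of 0.0445, and also without the 8 libraries (-0.35, Ion Proton adjusted p = 0.0335). CA1 against DG was -0.04 (95% interval -0.16 to 0.08).

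The log2 ratio of Camk2a to Camk2b within a library set these patterns side by side. Over 34 rats it averaged 0.36 ± 0.17 in CA1 and 0.33 ± 0.24 in CA3, but -0.07 ± 0.17 in DG. The ratio was higher in CA1 than in DG in 31 of 34 rats and higher in CA3 than in DG in 33 of 34, while CA1 exceeded CA3 in 20 of 34. The mean differences within rats were 0.43 ± 0.27 and 0.40 ± 0.23, and 0.44 and 0.41 in the Ion Proton table. Without the 8 libraries they were 0.48 and 0.44. The WT table gave 0.45 and 0.27, and there CA1 exceeded CA3 in 26 of 34 rats, by 0.175 on average against 0.03 in the Illumina table. Because gene lengths cancel only in such differences between subfields, the ratio itself is no statement of which subunit was more abundant.

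Camk2d, which encodes the delta subunit, ran the other way. It ranged from 428.9 to 1342 in CA1 (median 792.8), from 435.8 to 2449 in CA3 (median 780.9) and from 274.2 to 2310 in DG (median 454.4). DG was lowest, with 32 of 34 CA1 and 32 of 34 CA3 libraries above its median. Relative to DG, Camk2d was higher by 0.61 ± 0.15 in CA1 (adjusted p = 0.000256, limma) and by 0.68 ± 0.15 in CA3 (adjusted p = 5.33e-05), or 1.53-fold and 1.60-fold. In the Ion Proton table they were 0.40 (adjusted p = 0.0457) and 0.53 (adjusted p = 0.00664). The CA1 call was lost with edgeR (0.45), with DESeq2 (0.47), without the filter on low values and without the deeply sequenced rats, whereas without the 8 libraries it rose to 0.73. It was also lost without the libraries rich in choroid plexus genes (0.59, Ion Proton 0.41 with adjusted p = 0.0611). Myelin genes moved with Camk2d: the oligodendrocyte markers Mbp, Mog and Mobp were each called higher in both CA1 and CA3 than in DG. Mbp, which encodes myelin basic protein, ranged from 37800 to 165200 (CA1), from 29940 to 197200 (CA3) and from 22090 to 109700 (DG), and was higher than in DG by 0.87 in CA1 and 0.94 in CA3. Mog was higher by 0.63 and 0.75, and Mobp by 0.78 and 0.92. Their part in the result was not tested.

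Camk2g, the gamma subunit, was called in no pair with all libraries. It ranged from 1230 to 1958 in CA1 (median 1681), from 1237 to 2007 in CA3 (median 1618) and from 1432 to 2318 in DG (median 1835). In the Illumina table DG was higher than CA1 by 1.1-fold (adjusted p = 0.00205) and than CA3 by 1.12-fold (adjusted p = 0.000158), but the Ion Proton adjusted p-values were 0.0979 and 0.248. The CA1 to DG difference was called without the libraries rich in choroid plexus genes (-0.15, Ion Proton adjusted p = 0.0351) and without the Ion Proton libraries with few genes (-0.15, Ion Proton adjusted p = 0.0388).

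**Figure D2:**
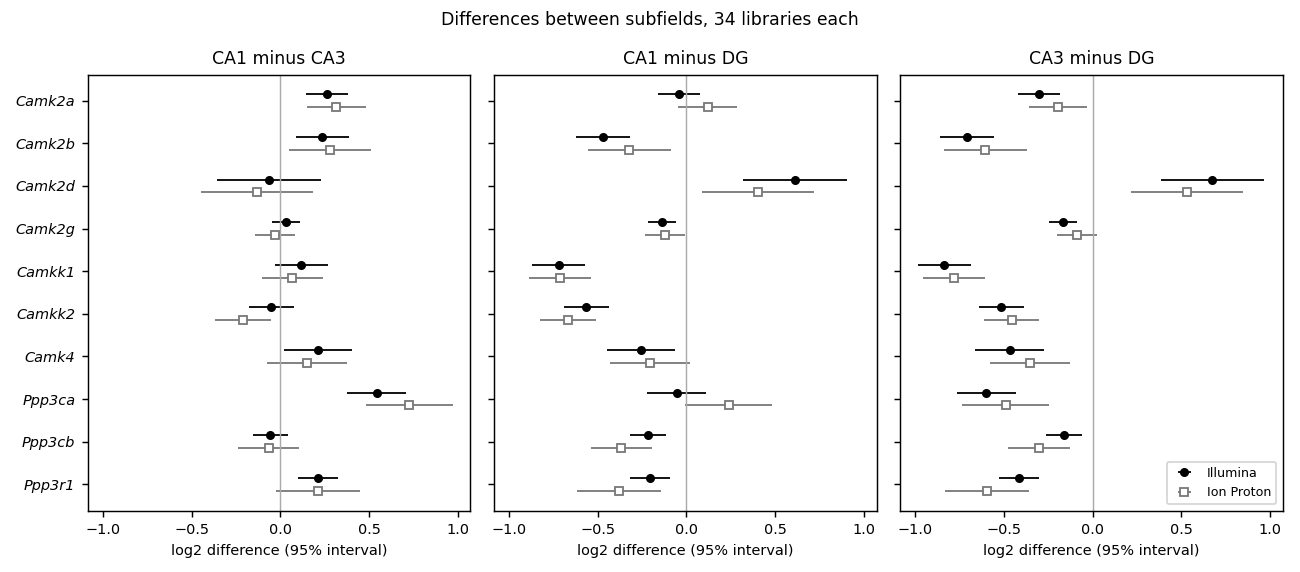
Log2 differences between subfields with 95% intervals for the 10 members (34 libraries per subfield). Filled circles are the Illumina and open squares the Ion Proton table. Camkk1, Camkk2 and Camk2b lay to the left of 0 in both comparisons with DG and Camk2d to the right, while Ppp3ca at 0.54 stood farthest from 0 for CA1 against CA3.

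Calcineurin is a dimer of a catalytic A subunit, for which Ppp3ca and Ppp3cb code in brain, and the regulatory B subunit of Ppp3r1. Ppp3ca ranged from 4469 to 15200 in CA1 (median 8788), from 3341 to 11000 in CA3 (median 6416) and from 5611 to 12550 in DG (median 9155). CA3 was low, with 33 of 34 CA1 libraries above its median. CA1 exceeded CA3 by 0.54 ± 0.08 (1.46-fold, adjusted p = 7.89e-08, limma), in 29 of 34 rats, and CA3 lay below DG by -0.60 ± 0.08 (adjusted p = 1.77e-09). In the Ion Proton table these were 0.73 and -0.49. CA1 against DG was -0.06 in the Illumina and 0.24 in the Ion Proton table, neither past the threshold, and without the Ion Proton libraries with few genes it was 0.05 in that table.

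Ppp3cb varied less. It ranged from 3276 to 5729 in CA1 (median 4703), from 3294 to 7030 in CA3 (median 4849) and from 3868 to 6016 in DG (median 5464). DG was slightly the highest, at -0.22 ± 0.05 in CA1 relative to DG (adjusted p = 0.000165, limma) and -0.16 ± 0.05 in CA3 (adjusted p = 0.00477), and CA1 and CA3 differed by -0.06 (95% interval -0.16 to 0.04). The log2 ratio of Ppp3ca to Ppp3cb was low in CA3 at 0.295 ± 0.268, against 0.895 ± 0.201 in CA1 and 0.733 ± 0.241 in DG. It was higher in CA1 than in CA3 in 32 of 34 rats, by 0.60 ± 0.33, and in 29 of 29 rats once the 8 libraries were left out. For CA1 against DG the ratio differed by 0.16 in the Illumina and by 0.60 in the Ion Proton table, and for CA3 against DG by -0.44 and -0.19. In the WT table CA1 exceeded CA3 by 0.51 (30 of 34 rats), CA1 differed from DG by 0.07 (19 of 34) and CA3 from DG by -0.44, but Ppp3cb itself had an r of only 0.315 between the WT and Illumina values over all subfields. The Ion Proton CA1 values of this ratio reached 4.10 in aged rats against 1.94 in young rats. Without the Ion Proton libraries with few genes the highest was 1.94 and the CA1 to DG difference was 0.35 ± 0.38 in place of 0.60 ± 0.81.

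Ppp3r1 ranged from 7335 to 16950 in CA1 (median 11930), from 6933 to 15810 in CA3 (median 10260) and from 9420 to 15980 in DG (median 13910). The order was DG, CA1, CA3 by median. The difference from DG was -0.20 ± 0.06 for CA1 (adjusted p = 0.00151, limma) and -0.42 ± 0.06 for CA3 (adjusted p = 8.69e-10). CA1 lay above CA3 by 0.21 in both tables, which passed in the Illumina table alone (adjusted p = 0.00171, against 0.249). Without the libraries rich in choroid plexus genes that difference was called (0.24, Ion Proton 0.32 with adjusted p = 0.0411), and the CA1 to DG difference was not (-0.18, Ion Proton -0.27 with adjusted p = 0.0687).

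Between rats within a subfield some members varied together and others opposite. In the Illumina table r was above 0 for 31, 29 and 34 of 45 pairs in CA1, CA3 and DG, and in the Ion Proton table for 25, 27 and 27. Across the 34 CA1 libraries Camk2a and Camk2b had a Pearson r of 0.80 and a Spearman rho of 0.69, and across CA3 0.81 and 0.81. Camk2b and Camk2d ran opposite in each subfield, with r of -0.72 (CA1), -0.80 (CA3) and -0.87 (DG), and rho of -0.73, -0.83 and -0.87. Leaving out the 2 libraries farthest from the median of Camk2b gave -0.62, -0.78 and -0.79, and the Ion Proton r was -0.68, -0.85 and -0.54. Ppp3ca and Ppp3r1 had r of 0.92, 0.89 and 0.89 in the Illumina table, but 0.04, 0.57 and 0.65 in the Ion Proton table (rho of 0.24 in CA1). Leaving out the 2 libraries farthest from the median of Ppp3ca gave r of 0.82 in CA1 in the Illumina and 0.42 in the Ion Proton table. These are descriptions over libraries that share rats, dissections and size factors. Across the libraries of all subfields, the correlation of a member's own values between the Illumina and the Ion Proton ran from r = 0.66 for Ppp3r1 to 0.94 for Camkk1. Between the Illumina and the WT table r was 0.315 for Ppp3cb and from 0.65 (Camk2g) to 0.98 (Camkk1) for the others.

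The genes whose level was most like that of a member across all Illumina libraries were listed by Pearson r, with r in the Ion Proton table beside it. For Camkk1 they were Enc1 (0.96, Ion Proton 0.85), Olfm1 (0.96, 0.86) and Lgi1 (0.95, 0.63). For Camk2b they were Rbfox1 (0.97, 0.28), Enc1 (0.95, 0.47) and Ncdn (0.94, 0.86). For Camk2a they were Zfp238 (0.86, 0.71), Ppp3ca (0.86, 0.32) and Jph3 (0.84, 0.80). For Camk2d they were Fhod3 (0.89, 0.70), Rassf5 (0.87, 0.76) and Chrna4 (0.87, 0.52). For Ppp3ca they were Actr3 (0.97, 0.79), Zfp238 (0.94, 0.38) and Kcnd2 (0.93, 0.67). For Ppp3cb they were Nckap1 (0.92, 0.84), Rab6a (0.92, 0.88) and Mtpn (0.92, 0.84). The likeness of Rbfox1 to Camk2b in the Illumina table was thus largely missing from the Ion Proton table, while that of Enc1 to Camkk1 and of Ncdn to Camk2b was present in both. For Camk2g they were Zdhhc22 (0.81, 0.55), Igsf3 (0.81, 0.605) and Rap1gap2 (0.80, 0.61). For Camkk2 they were Fam131b (0.91, 0.71), Prrt2 (0.89, 0.70) and Cacng2 (0.87, -0.04), the last of which showed no likeness on the Ion Proton. The genes nearest to Camk4 were Cadm2 (0.84, 0.67), Mgll (0.80, 0.48) and Lrrc8b (0.79, 0.53), and those nearest to Ppp3r1 were Actr3 (0.93, 0.78), Rbfox1 (0.92, 0.23) and Nmt1 (0.91, 0.19).

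Calmodulin, its buffers, other calmodulin-dependent kinases, regulators of calcineurin and effectors were listed as 33 further genes of the pathway, of which 32 rows were tested (Calm2 had 2 rows). Between CA1 and CA3, 7 of 32 rows were called higher and 6 of 32 lower in CA1, beside 7.26% and 7.09% of all genes. Dapk1, a calmodulin-dependent death-associated kinase, was higher in CA1 by 0.58, as were Rcan1 (0.34), an inhibitor of calcineurin, and Akap5 (0.27), the anchor that holds calcineurin at the postsynaptic membrane. Camk1g was lower in CA1 by -0.65 and Pnck by -0.42, both kinases of the CaMKI family. The endogenous CaMKII inhibitors moved apart, with Camk2n1 at 0.22 and Camk2n2 at -0.47. Ppp1r1a, the phosphatase inhibitor that calcineurin dephosphorylates, was higher in CA1 (0.55), as was Ppp1r1b (0.51), and Nfatc2, a transcription factor that calcineurin activates, was lower (-0.59). Also lower in CA1 were Gap43, a growth-associated protein that binds calmodulin (-0.34), and Prkaa2, a catalytic subunit of the AMP-activated kinase (-0.43). Of the calmodulin gene Calm2 1 row was higher in CA1, by 0.09 (Ion Proton 0.17).

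Against DG, 2 of 32 pathway rows were called higher and 5 of 32 lower in CA1, beside 13.4% and 13.5% of all genes. In CA3, 3 of 32 were higher and 9 of 32 lower, beside 14.1% and 14.3%. Rcan2 was higher in both CA1 (0.64) and CA3 (0.42) than in DG, and Rcan3 in CA1 (0.70). Those lower in CA3 included Dapk1 (-0.80), Ppp1r1a (-0.81), Crtc1 (-0.51), a coactivator of CREB that calcineurin releases to the nucleus, Camk2n1 (-0.425), Akap5 (-0.33), Rcan1 (-0.225) and Calm2 (-0.16, Ion Proton -0.20). Camk1g was higher in CA3 than in DG by 0.71, and Gap43 by 0.33. In CA1 Camk2n2 (-0.35), Pnck (-0.32) and Prkaa2 (-0.38) were lower than in DG. Camk1d was lower than in DG in both CA1 (-0.35) and CA3 (-0.19), as was Pcp4, a calmodulin-binding peptide (-0.42 and -0.27). Calm3 was called in no pair.

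The second question was the effect of age. In each subfield 24 aged rats were compared with 10 young rats in the Illumina table, and a gene with unadjusted p under 0.01 was retested one-sided in the Ion Proton table at 0.05. No member was called and no member was retested. By limma the count of members with adjusted p under 0.05 was 0 of 10 in CA1, CA3 and DG, beside 0.338%, 0% and 0.3% of all genes, and the retested count was 0 of 10 beside 0.851%, 0.402% and 1.09%. At an unadjusted p under 0.05 in the Illumina table there was 1 member, Camkk2 in CA3, beside 3.31% of all genes, and 0 in CA1 (6.15%) and DG (5.2%). edgeR and DESeq2 on the recovered reads also called 0 members with age, and their shares of all genes are not given here.

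The 95% intervals show what sizes remain possible. In CA1 the members' log2 differences ran from -0.21 for Camk4 (interval -0.44 to 0.02) to 0.06 for Camk2d (-0.26 to 0.38). For Camk2a the CA1 values ran from 18860 to 28070 in young rats (median 22740) and from 12910 to 30450 in aged rats (median 21920), and the difference was -0.12 (-0.32 to 0.08). The groups overlapped, with 8 of 24 aged rats above the young median. In DG the intervals were narrow for Camk2a (-0.19 to 0.13), Ppp3cb (-0.15 to 0.05) and Ppp3r1 (-0.20 to 0.06), and wide for Camk2d (-0.40 to 0.65).

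In CA3, Camkk2 ranged from 438.2 to 846.7 in young rats (median 574.9) and from 440.6 to 1031 in aged rats (median 694.7). The aged rats were higher on average, by 0.24 ± 0.11 (unadjusted p = 0.0458, adjusted p = 0.999, limma), with 18 of 24 above the young median, and the groups overlapped. In the Ion Proton table the difference was 0.13 (p = 0.387). The young group held 1 rat at 847, with the others from 438 to 638. Without the libraries nearest another subfield the difference was 0.22 (p = 0.0685). Aged unimpaired against young rats gave 0.28 (p = 0.0292) and aged impaired against young 0.19 (p = 0.151) in the Illumina table, comparisons that share the young rats. Without the deeply sequenced rats Camkk2 passed the retest in CA3, at 0.32 for aged against young and 0.35 for aged unimpaired against young.

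Whether the age difference of a member varied between subfields was tested as an interaction, and 0 of 10 members were called in any pair, beside 0% of all genes. The lowest p was for Camkk2, whose age difference in CA1 (-0.11) was below that in CA3 by -0.35 ± 0.14 (p = 0.0132, adjusted p = 1, limma). The Ion Proton value was -0.36 (p = 0.0401, adjusted p = 1), and without the 8 libraries the values were -0.33 and -0.41. Camk4 gave -0.44 (p = 0.0426) for the same pair in the Illumina table. With the rat as a block the Illumina p was 0.00684 for Camkk2 and 0.0264 for Camk4 (limma), and neither was called.

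**Figure D3:**
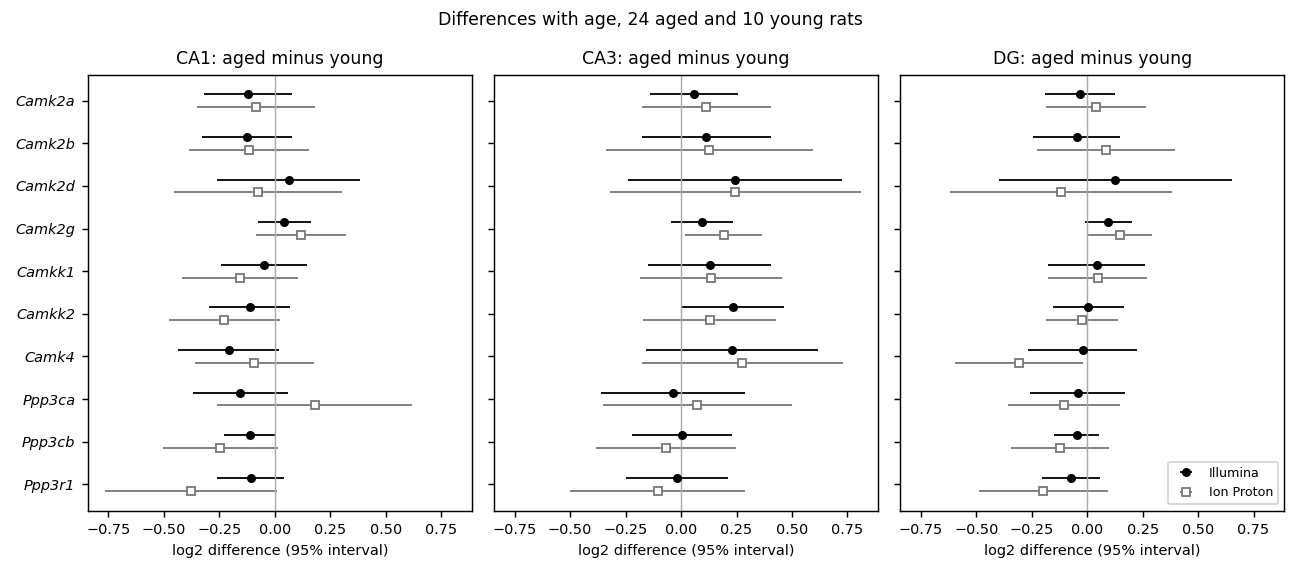
Log2 differences of 24 aged against 10 young rats with 95% intervals in each subfield, for the 10 members. Filled circles are the Illumina and open squares the Ion Proton table. Among Illumina intervals that of Camkk2 in CA3 alone lies off 0, and among Ion Proton intervals those of Camk2g in CA3 (0.19) and DG (0.15) and of Camk4 in DG (-0.31).

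The third question compared aged impaired with aged unimpaired rats. No member was called in any subfield, beside 0% of all genes. Camk2d in CA1 was the only member that passed the retest, 1 of 10 beside 0.635% of all genes, or 0.382% in the upward direction. In CA3 and DG 0 of 10 members were retested, beside 0.0216% and 0.124%. At an unadjusted p under 0.05 there were 3 members in CA1 (Camk2a, Camk2d and Ppp3ca), beside 5.71% of all genes, and 0 in CA3 (1.4%) and DG (3.85%). In CA1, edgeR gave 0 of 10 members an adjusted p under 0.05, beside 0% of all genes, and DESeq2 gave 1 of 10, Camk2d, beside 0.0422%. In CA3 and DG both gave 0 members, and their shares of all genes there are not given here.

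In CA1, Camk2d ranged from 428.9 to 970.2 in aged unimpaired rats (median 688.1) and from 717.0 to 1342 in aged impaired rats (median 1027), with young rats from 451.7 to 1318 (median 837.0). The impaired rats were high and the unimpaired low, with all 12 of 12 impaired rats above the unimpaired median, yet the groups overlapped. The means were 1020 ± 232 (n = 12) and 689 ± 150 (n = 12). The difference was 0.56 ± 0.13 on the log2 scale (95% interval 0.30 to 0.82), with unadjusted p = 0.000152 and adjusted p = 0.308 by limma, so it did not pass the correction over all genes.

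The Ion Proton libraries of the same RNA gave a range of 285.2 to 612.7 in unimpaired rats (median 492.7) and of 379.9 to 1322 in impaired rats (median 697.7). The difference was 0.61 ± 0.16 (p = 0.000721, adjusted p = 1, limma), with 11 of 12 impaired rats above the unimpaired median. In the WT table it was 0.60 (adjusted p = 0.253). The tables share rats and RNA, so their likeness bears on technical error and not on variation between animals.

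The Camk2d difference in CA1 did not rest on 1 rat. Leaving out each of the 24 rats in turn, an alternative added after the data were seen, gave 0.50 to 0.61 with unadjusted p from 4.64e-05 to 0.000364 in the Illumina table and 0.53 to 0.69 in the Ion Proton table. It was 0.58 without the library labelled CA1 whose markers lay nearest DG, 0.51 without the deeply sequenced rats, 0.51 in rats numbered below 9000 and 0.61 in rats numbered from 9000 up. With DESeq2 on recovered reads it was 0.57 with an adjusted p of 0.0259, and with edgeR 0.57 with an adjusted p of 0.403. Without the 4 CA1 libraries rich in choroid plexus genes it fell to 0.47 (p = 0.00168, adjusted p = 1, limma) and to 0.53 in the Ion Proton table (p = 0.00504), and it still passed the retest. Without the 4 CA1 libraries with few Ion Proton genes it was 0.66 and 0.68. Across the 14 settings, including the main one, the adjusted p ran from 0.0259 to 1.

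Beside this result, some marker lists of other cells were read in the same CA1 libraries. Those of astrocytes, microglia, interneurons and endothelium are not reported for this comparison. The summed dentate granule markers ranged from 301.9 to 2364 in unimpaired rats (mean 1330) and from 394.9 to 2826 in impaired rats (mean 1608), with 0 of 3 tested markers called. Of the subiculum and cortex markers, Fn1 ranged from 595.4 to 1785 (mean 1202) and from 827.6 to 1976 (mean 1295), Tshz2 from 112.0 to 1141 (mean 512.8) and from 147.9 to 2069 (mean 827.5), and Nptx2 from 385.3 to 1118 (mean 757.8) and from 297.7 to 968.4 (mean 741.7), none of them called. The summed CA1 pyramidal markers ranged from 2281 to 22040 (mean 12780) and from 6697 to 11870 (mean 10220). The choroid plexus markers ranged from 6.55 to 122500 (median 202.2) and from 5.08 to 147500 (median 234.3). Of the oligodendrocyte markers, Mbp ranged from 48380 to 165200 (mean 86010) and from 50880 to 109900 (mean 75310), Mog from 1197 to 3077 and from 1268 to 2315, and Mobp from 6843 to 26540 and from 7252 to 16840, none of them called. The ranges of the groups overlapped for each list or gene given, and the part of these cells in the difference was not tested.

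**Figure D4:**
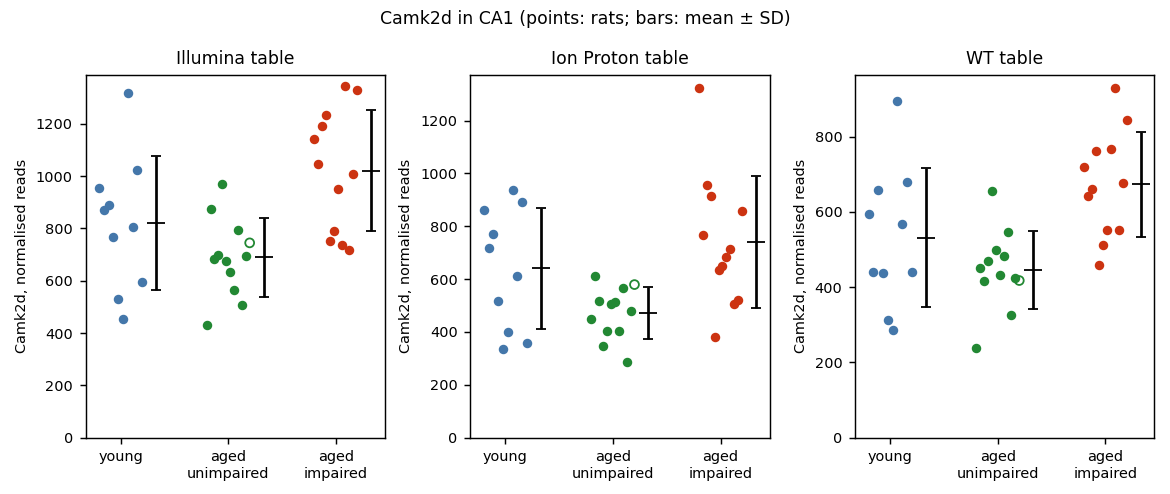
Camk2d in CA1, in normalised reads on axes from 0, in the Illumina, Ion Proton and WT tables. Each point is a rat (10 young, 12 aged unimpaired, 12 aged impaired), the bars give the mean ± SD, and the open circle is the library whose markers lay nearest DG. In the Illumina table the unimpaired rats reach 970.2 and the impaired rats start at 717.0.

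In the other subfields Camk2d did not show this difference past the test. In CA3 it was -0.12 (95% interval -0.72 to 0.47), with 435.8 to 2449 in unimpaired and 501.6 to 1784 in impaired rats. In DG it was 0.27 (-0.27 to 0.81), with 293.1 to 2310 in unimpaired and 360.6 to 1016 in impaired rats. Without the 8 libraries the DG difference was 0.48 (p = 0.0236, adjusted p = 0.997, limma) and 0.42 in the Ion Proton table, so its size depended on them. The interaction with subfield was 0.69 ± 0.35 for CA1 against CA3 (p = 0.0546, adjusted p = 0.959, limma) and 0.30 ± 0.35 for CA1 against DG (p = 0.402). Without the 8 libraries these were 0.79 (p = 0.0220, adjusted p = 0.541) and 0.10 (p = 0.772), and without the libraries rich in choroid plexus genes 0.60 (p = 0.117) and 0.20 (p = 0.587). With the rat as a block the interaction p was 0.04 for CA1 against CA3 (adjusted p = 0.756, limma) and 0.37 for CA1 against DG. A difference between subfields was not shown after correction.

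Against young rats the aged groups lay on opposite sides. In CA1, Camk2d was -0.22 in aged unimpaired (p = 0.176) and 0.34 in aged impaired rats (p = 0.0399, adjusted p = 0.592, limma), and the Ion Proton gave -0.38 (p = 0.0457) and 0.23 (p = 0.267). Both comparisons use the same 10 young rats, and neither passed the correction.

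Of the other 9 members, none passed the retest in CA1, and the log2 difference was below 0 for all but Camk2g (0.12) in the Illumina table. Camk2a ranged from 17010 to 30450 in unimpaired rats (median 22780) and from 12910 to 26900 in impaired rats (median 20510). The impaired rats were lower on average with 2 of 12 above the unimpaired median, and the groups overlapped. The difference was -0.23 ± 0.11 (unadjusted p = 0.0414, adjusted p = 0.848, limma) and -0.21 in the Ion Proton table (p = 0.155). Ppp3ca gave -0.24 ± 0.11 (p = 0.0496, adjusted p = 0.873) and -0.30 in the Ion Proton table (p = 0.265). The median over the 10 members was -0.13, beside -0.004 over all genes, and 2 of 10 members were positive. Several members vary together within CA1, so this median and count do not stand for independent results. Without the CA1 library nearest DG, Ppp3cb (-0.14, p = 0.0240) and Ppp3r1 (-0.20, p = 0.0153) also had an unadjusted p under 0.05, but the Ion Proton p-values were 0.488 and 0.798. Camk2a, Camk2d and Ppp3ca stayed under 0.05 in the Illumina table, and the share of all genes under this omission is not given. Without the 4 CA1 libraries rich in choroid plexus genes Camk2d alone had an unadjusted p under 0.05 (1 of 10, beside 3.08% of all genes), with Camk2a at -0.16 (p = 0.173) and Ppp3ca at -0.15 (p = 0.178).

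Aged impaired against young rats in CA1 gave 6 of 10 members with an unadjusted p under 0.05, beside 7.96% of all genes. They were Camk2a (-0.24), Camk4 (-0.29), Ppp3ca (-0.27), Ppp3cb (-0.17) and Ppp3r1 (-0.19), with lower values, and Camk2d (0.34), with higher. None had an adjusted p under 0.05 by limma (0 of 10, beside 0.0212%) and none was retested (0 of 10, beside 1.23%). Several members varied together across the CA1 libraries of the Illumina table, so the 6 are not independent results. For example, r was 0.915 for Ppp3ca and Ppp3r1 and 0.856 for Ppp3cb and Ppp3r1, but -0.011 for Camk4 and Ppp3r1. The lowest p was for Ppp3cb, which ranged from 4292 to 5729 in young rats (median 4963) and from 3276 to 4890 in impaired rats (median 4492). All 12 impaired rats lay below the young median, and the groups overlapped (p = 0.0135, adjusted p = 0.474). In the Ion Proton table Ppp3cb was -0.30 (p = 0.0286), Ppp3r1 -0.41 (p = 0.0420), Ppp3ca 0.03 (p = 0.885) and Camk2a -0.19 (p = 0.247). Without the libraries rich in choroid plexus genes 2 of 10 members had an unadjusted p under 0.05 in the Illumina table, beside 5.71% of all genes. They were Camk4 (-0.30, p = 0.0447) and Ppp3cb (-0.13, p = 0.0318), by limma. Aged unimpaired against young rats gave 0 members in CA1 with an adjusted p under 0.05 (0% of all genes), 0 retested (0.621%) and 0 with an unadjusted p under 0.05 (4.87%) by limma, with a median over the members of -0.04.

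**Figure D5:**
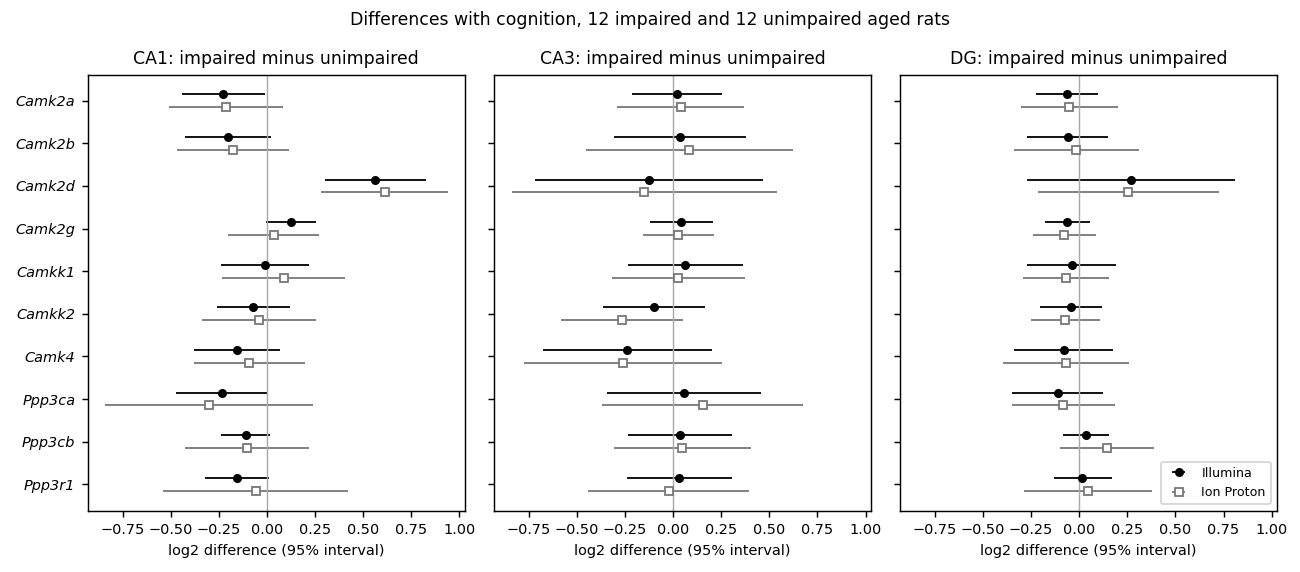
Log2 differences of 12 aged impaired against 12 aged unimpaired rats with 95% intervals in each subfield, for the 10 members. Filled circles are the Illumina and open squares the Ion Proton table. Camk2d in CA1 lies at 0.56 and 0.61 with both intervals above 0, and the members of CA3 and DG straddle 0.

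In CA3 the difference of impaired from unimpaired rats was 0.02 for Camk2a (95% interval -0.21 to 0.25), 0.04 for Camk2g (-0.12 to 0.20), 0.06 for Ppp3ca (-0.34 to 0.46) and 0.03 for Ppp3r1 (-0.24 to 0.30), beside the -0.12 of Camk2d given above. In DG the members' differences ran from -0.11 for Ppp3ca to 0.27 for Camk2d, and Camk2b values of 18400 to 25680 in impaired rats lay within the 13990 to 29370 of unimpaired rats. In CA1 the ratio of Camk2a to Camk2b was 0.36 ± 0.12 in young, 0.38 ± 0.19 in unimpaired and 0.35 ± 0.21 in impaired rats. The ratio of Ppp3ca to Ppp3cb in CA1 was 0.93 ± 0.16, 0.94 ± 0.18 and 0.82 ± 0.24. These ratios were not tested.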

How the data were processed

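RNA of CA1, CA3 and DG of 34 rats was analysed in 3 tables with 1 library per rat and subfield. In the deposited tables the authors had divided gene counts by size factors from DESeq2, so each value was a normalised signal. Per the methods and the labels' processing notes, Illumina reads were trimmed with cutadapt 1.8.3, aligned to rn5 with STAR 2.5 and counted with featureCounts 1.4.4, and Ion Proton reads were aligned with TopHat2 and Bowtie2. The labels name a stranded kit and the methods an unstranded one, so use of strand in counting is not known, and overlapping genes can share reads. The aligner and kit of the WT table are not given in the sources used here. Symbols, identifiers and chromosomes come from the tables, which hold no positions.

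Values were whole multiples of 1 step per library, which returned whole reads for 100% of values (tolerance 0.01 of a read). Genes with a mean of at least 10 were tested with limma 3.58.1 (R 4.3.3) on log2(value + 1), which understates changes of low genes, with a variance trend and Benjamini-Hochberg adjustment over all genes. Subfields were compared in 1 fit per table, age and cognition within each subfield. Each rat gave 3 libraries, so the subfields are paired by animal. The correlation of deviations between libraries of the same rat had a median of 0.09, 0.19 and -0.03 for the pairs CA1 and CA3, CA1 and DG, and CA3 and DG. Alternatives were a pseudocount of 0.1, no filter, quantile normalisation, edgeR 4.0.16, DESeq2 1.42.0, omission of 7 deeply sequenced rats, the rat number series as a covariate or split, the rat as a block, the WT table and, added after the data were seen, omission of the 8 libraries nearest another subfield, of 5 rich in choroid plexus genes, of 7 with few Ion Proton genes and of single rats. A further alternative left out the CA3 library of young rat 9876. Scripts were tested on simulated data. Each member was named, along with listed pathway genes that were called and, for each member, the 3 genes with the highest correlation. The members, lists and tests were chosen with earlier results of these data known. Some listed markers and a listed pathway gene are not reported here.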

Additional observations from a re-analysis of the deposited data

Results flagged for a closer look

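In groups of 10 young rats, the gap of the highest or lowest library to its neighbour was compared with Dixon's 95% limit of 0.466. A total of 60 tests were run over the 10 members and 3 subfields in both poly-A tables, and 3 passed, a number that chance alone can give since about 1 group in 20 is marked. Camkk2 in CA3 of 1 young rat stood at 847 normalised reads, with the other young rats from 438 to 638. Camk4 in CA3 of the same rat stood at 398, with the others from 145 to 279. Ppp3r1 in DG of 1 young rat stood low at 10700, with the others from 13600 to 16000. The last of these was one of the libraries whose subfield markers lay nearest another subfield. The groups of 12 aged rats were not tested in this way.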

How the results depend on the processing

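No called difference of a member changed direction under any alternative. Of 2590 single values computed under alternatives, 159 had another sign than the reported value, and 0 of these were called in either. Counts of members called between subfields stayed within 1.5 times of the reported counts under every alternative. With the rat as a replicate block they were 2, 6 and 9 of 10 between CA1 and CA3, CA1 and DG, and CA3 and DG, the addition being Camk2a, and the block changed no other call. Without the libraries nearest another subfield they were also 2, 6 and 9. Without the deeply sequenced rats 1 member (Camkk2) was retested for age in CA3 and 1 for aged unimpaired against young in CA3. For aged impaired against young in CA1, 1 member (Ppp3cb) was retested with DESeq2 and 1 with rat number series in the fit. DESeq2 called 1 member (Camk2d) for cognition in CA1, beside 0.0422% of all genes. For the other counts of members called or retested in this paragraph, the share of all genes under the same alternative is not given. Those counts thus describe the members alone. The ratio of Ppp3ca to Ppp3cb for CA1 against DG was 0.60 in the Ion Proton table in place of 0.16, and 0.35 there without the Ion Proton libraries with few genes. The causes of these changes were not tested. Under quantile normalisation Camk2b between CA1 and CA3 (0.25) and Camk2a between CA3 and DG (-0.30) gained the call. Of single values, 8 gained and 8 lost the threshold and 2574 kept their side of it. In Camk2d the 95% interval for cognition still reached -0.72 in CA3 and 0.81 in DG.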
